A study of Mus musculus with 12 samples.

Results

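The genes described here encode the switch and the activators that start branched actin networks: Cdc42, its WASP arm (Was, Wasl and Wipf1), the WAVE complex (Wasf2, Cyfip2, Nckap1l, Abi1 and Brk1) and the kinase Pak2. They were taken by symbol from the deposited count table, and all 10 were found among its 55291 symbols. All 10 also belonged to the 19010 genes with enough counts to be tested. Cdc42 is a small GTPase that exchange factors such as Dock8 load with GTP. In that state it binds and opens WASP, the product of Was, whose tail then activates the Arp2/3 complex to branch new filaments from old ones. The WAVE complex does the same at the leading edge when Rac binds it, and in T cells the WASP and WAVE pathways serve the immune synapse and migration; WASP is the protein missing in Wiskott-Aldrich syndrome.

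The libraries were made from activated CD8+ T cells isolated from lymph node and spleen of WT or Dock8 KO mice. All cells were activated and expanded for 3 days and then kept for 24 h either in media or in bovine collagen gel (Nutragen, 2 mg/mL), from which they were recovered. The 4 groups are WT media, WT gel, KO media and KO gel, each with 3 libraries and, per the labels, 3 mice. The labels name neither the part of Dock8 that was deleted nor whether the media and gel cultures used cells of the same mice. The question put to these genes is whether their transcripts differ with loss of the Cdc42 exchange factor Dock8, with confinement in collagen, or with both.

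Levels are CPM, counts scaled to 1000000 per library after TMM normalization, and log2 fold changes come from edgeR's quasi-likelihood test on all 12 libraries. A gene was called, and said to rise or fall, at a Benjamini-Hochberg adjusted p under 0.05 over the 19010 genes. In media Dock8 itself had 125.90, 108.58 and 125.30 CPM in KO against 362.50, 418.36 and 442.64 CPM in WT. In gel it had 167.97, 160.75 and 158.27 CPM in KO against 378.48, 410.47 and 449.59 CPM in WT. The KO libraries were the lower ones throughout, and transcript from the locus was still counted in each of them.

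The libraries held 28483064 to 61390702 counts. The KO gel libraries stood apart from the other 9. At a common depth of 28483064 counts they showed 28362 to 30104 genes with a count, against 24336 to 25142. Mitochondrial transcripts took 2.27 to 2.61% of their counts, against 1.34 to 2.31%. The 7 CD8 T cell markers summed to 2985 to 3139 CPM in KO gel and 3091 to 3633 CPM elsewhere. KO media library 2, with 2.31% mitochondrial transcripts and 3091 CPM of these markers, overlapped KO gel in both. Of 23 markers of other cell types, 16 stayed under 1 CPM in every library and S100a9 was at 0 in all 12. The 23 together summed to 180 to 192 CPM in KO gel and 157 to 176 CPM elsewhere. Most of that sum was Pecam1, at 118 to 131 CPM in KO gel and 109 to 146 CPM elsewhere, and Itgax, at 30.8 to 42.0 and 12.4 to 45.2 CPM, both overlapping. The platelet genes Itga2b and Pf4, the basophil gene Mcpt8 and the mast cell gene Cpa3 summed to 11.3 to 23.1 CPM in KO gel and 3.31 to 8.05 CPM elsewhere. The part of these shifts in the KO gel results below was not tested. Ribosomal RNA gene models took 11.9% of the counts of WT gel library 2 and 8.11% of KO media library 3. Calls that ended when both were left out are named below. For markers of other cell types in pairs of groups, the number of alternatives passed is given instead.

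Among the promoters of the 10 genes, those of Was and its ubiquitous paralog Wasl are printed because the transcripts of the pair lay far apart in level; those of Brk1, which had the second lowest adjusted p beside Was in KO gel, and of Cdc42 are printed for comparison. Each run is the 120 bases just before the annotated start, 5′ to 3′ on the gene's strand, from RefSeq on GRCm38.p6, with each CG dinucleotide in capitals.
Was, chrX:8090492-8090611, minus strand: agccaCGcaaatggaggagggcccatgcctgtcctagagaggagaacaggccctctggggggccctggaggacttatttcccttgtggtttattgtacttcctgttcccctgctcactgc
Wasl, chr6:24664996-24665115, minus strand: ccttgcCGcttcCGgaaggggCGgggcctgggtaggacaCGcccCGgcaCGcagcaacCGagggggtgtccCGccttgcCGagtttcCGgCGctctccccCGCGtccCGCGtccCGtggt
Cdc42, chr4:137357760-137357879, minus strand: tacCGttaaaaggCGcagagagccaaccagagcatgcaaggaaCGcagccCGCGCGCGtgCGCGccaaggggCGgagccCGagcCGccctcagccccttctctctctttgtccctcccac
Brk1, chr6:113604652-113604771, plus strand: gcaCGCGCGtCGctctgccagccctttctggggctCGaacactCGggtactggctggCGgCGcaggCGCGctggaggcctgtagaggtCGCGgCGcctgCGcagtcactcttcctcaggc
The Was stretch held 1 CG, the Wasl stretch 16, Cdc42 12 and Brk1 14. Over the longer window of 300 bases (250 before the start and 50 after), Was had 5 CG, and 43.6% of all 32851 promoter windows had as few or fewer. The Wasl window had 36, and 94.4% of windows had as few or fewer. A CG on either strand reads as CG on the other, and 94.6% of all windows held at least 1, with a median of 7. RefSeq windows matched 8 of the 10 genes; Nckap1l and Pak2 had none. These counts describe the letters only, since no methylation or binding was measured.

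Per length of exon, Cdc42 was the highest of the 10 in all 12 libraries, with 145 CPM per kb (SD 10.1 over 12 libraries). Brk1 followed at 71.9 ± 6.36 CPM per kb and Cyfip2 at 64.6 ± 5.69 CPM per kb, and Brk1 exceeded Cyfip2 in 10 of 12 libraries. Wipf1 stood at 56.9 ± 3.98, Nckap1l at 54.1 ± 3.56 and Was at 45.6 ± 5.42 CPM per kb. Wasf2 reached 42.0 ± 3.94, Pak2 36.7 ± 1.73 and Abi1 30.1 ± 1.30 CPM per kb. From Cyfip2 down to Pak2 each gene exceeded the next in 10 or 11 of 12 libraries, so the order of neighbours in this stretch was not the same in every library. The order also depended on the length used. Per kb of the longest transcript Wipf1 (71.0 CPM per kb) stood above Cyfip2 (68.9). Wasl, which encodes N-WASP, was last at 2.40 ± 0.531 CPM per kb, and Abi1 stood 12.6 times higher. By CPM, 9 of the 10 lay between percentile 85.3 (Brk1) and 98.7 (Cyfip2) of the genes tested, and Wasl at percentile 55.9.

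**Figure D1:**
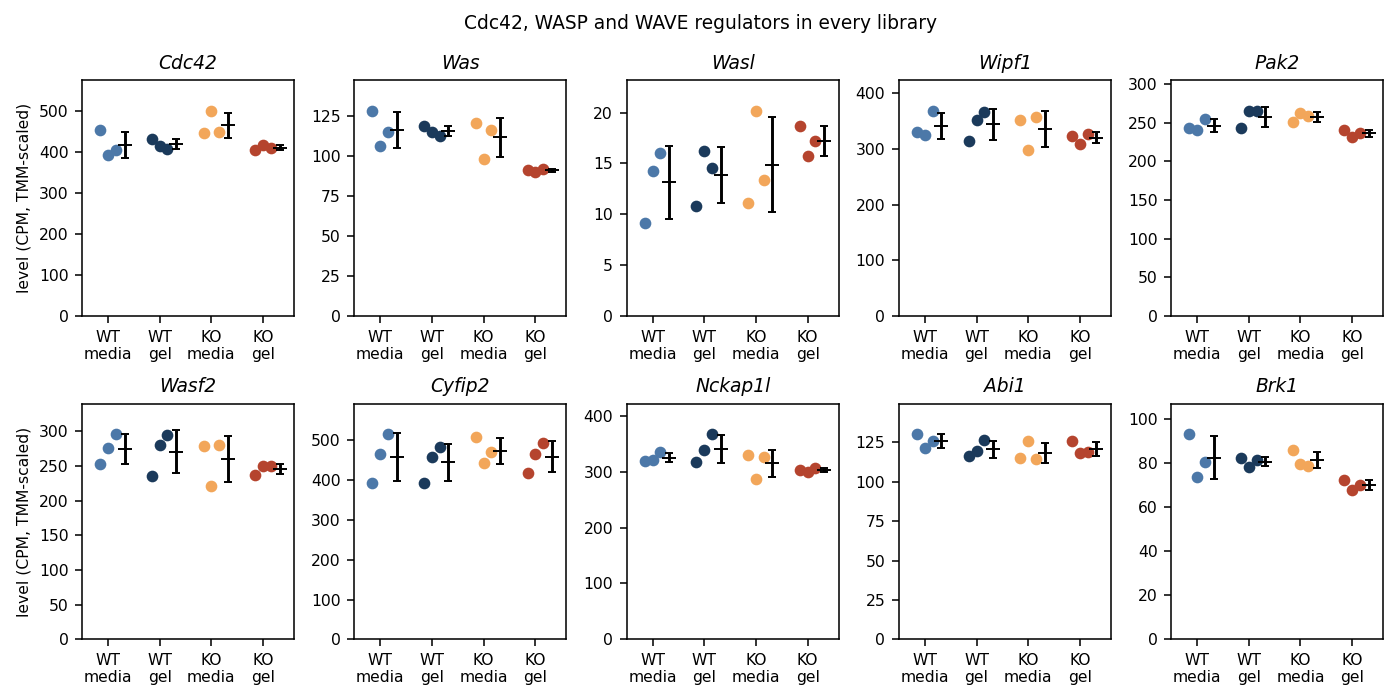
Level of each of the 10 genes (CPM after TMM scaling, vertical axes from 0 and scaled per gene) in the 3 libraries of each group (points), with the group mean and SD beside them in black. The KO gel points of Was and Brk1 lie under all other points of their panels, and the remaining panels show overlapping groups in most comparisons.

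Cdc42 levels overlapped between both WT groups and averaged highest in KO media. The 3 libraries read 454.76, 394.34 and 406.76 CPM in WT media and 432.45, 416.48 and 409.19 CPM in WT gel. In KO they read 446.99, 500.86 and 449.02 CPM in media and 406.01, 417.47 and 411.38 CPM in gel. All KO gel libraries lay below all KO media libraries, and the KO and WT libraries overlapped in each culture. The log2 difference between gel and media in KO was -0.18 (SE 0.07, 95% interval -0.33 to -0.02), which did not pass the test (adjusted p = 0.0895). KO against WT in media gave 0.15 (SE 0.07, adjusted p = 0.666), and in gel -0.03 (SE 0.07, adjusted p = 0.841), a value that becomes 0.08 when libraries are scaled by total counts.

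Was was the 1 gene of the 10 that passed the test, and it did so in both comparisons that involve KO gel. It encodes the haematopoietic nucleation promoter that Cdc42 opens. Its libraries read 128.16, 106.13 and 114.73 CPM in WT media, 118.69, 115.04 and 112.84 CPM in WT gel, and 120.75, 97.84 and 116.48 CPM in KO media. In KO gel they read 91.10, 90.33 and 91.97 CPM. The 3 KO gel libraries were thus the lowest of the 12 and nearly equal, and the other 3 groups overlapped.

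In the KO cells Was fell in gel by 0.29 on the log2 scale (SE 0.08, 95% interval -0.47 to -0.12, adjusted p = 0.0233), to 0.816 times its media level. Against WT in gel it was lower by 0.34 on the log2 scale (log2 difference -0.34, SE 0.08, 95% interval -0.52 to -0.16, adjusted p = 0.0139), at 0.789 times the WT level. In WT cells the gel difference was -0.01 (SE 0.08, 95% interval -0.19 to 0.17, adjusted p = 1). In media the difference between KO and WT was -0.06 (adjusted p = 0.892). The difference between the gel responses of the genotypes was -0.28 (SE 0.12, 95% interval -0.53 to -0.03), with an unadjusted p of 0.0297 and an adjusted p of 0.2, so the response of Was was not shown to differ between KO and WT. That difference passed with the replicate number as a block (adjusted p = 0.0267), where 18.0% of all genes were called. Without WT media 1 it passed too (adjusted p = 0.0478), where 10.3% of all genes were called, against 3.35% in the main fit. The block paired media and gel libraries by number in both genotypes. From the data, the numbers were taken to pair the WT libraries, while pairing of the KO ones was left undecided. In bulk RNA, fewer cells expressing Was and less Was transcript per cell cannot be told apart.

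The call between KO and WT in gel held without each single gel library in turn, and leaving out media libraries was not tried. The KO gel against media call ended without KO media 1, KO media 3 or any 1 of the 3 KO gel libraries (adjusted p 0.0529 to 0.0941), and both calls ended when libraries were scaled by total counts (adjusted p 0.0763 and 0.115) or when the 2 libraries rich in ribosomal RNA were left out (0.111 and 0.0635). That scaling moved the median of all genes to 0.10 in KO against WT in gel, and relative to that median Was differed by -0.34 under either scaling.

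Wipf1, whose product WIP binds and stabilises WASP, did not pass any test. Its libraries ranged from 326 to 368 CPM in WT media, 314 to 367 in WT gel, 298 to 358 in KO media and 309 to 327 in KO gel, and all groups overlapped. Its largest log2 difference, -0.11 (SE 0.09, adjusted p = 0.433), was between KO and WT in gel. Wasl, the N-WASP gene, had 9.10 to 16.0 CPM in WT media, 10.8 to 16.2 in WT gel, 11.1 to 20.2 in KO media and 15.7 to 18.7 in KO gel. Its log2 difference between KO and WT in gel was 0.32 (SE 0.24, 95% interval -0.20 to 0.83, adjusted p = 0.403), opposite in sign to that of Was and with an interval that includes 0. Wasl was the least precisely measured of the 10.

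The ratio of Was to Wipf1 per kb, taken within each library, does not depend on the scaling of libraries. In WT cells it read 0.962, 0.807 and 0.771 in media and 0.937, 0.807 and 0.761 in gel. In KO media it read 0.850, 0.813 and 0.805. In KO gel it read 0.696, 0.724 and 0.696 (mean 0.705, SD 0.0162, n = 3), below all other 9 libraries. The ratio of Was to Cdc42 was 0.335 to 0.351 in the 6 WT libraries and 0.270 to 0.280 in KO gel, and KO media library 2, at 0.243, lay lower still. For Was over Wasf2 the KO gel values of 0.952 to 1.01 met the lowest WT gel value. A ratio shows that the pair changed unequally and not which of them moved. Each ratio uses the same Was counts, which were already lowest in KO gel. How often ratios of other gene pairs fall below the other 9 libraries was not counted.

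**Figure D2:**
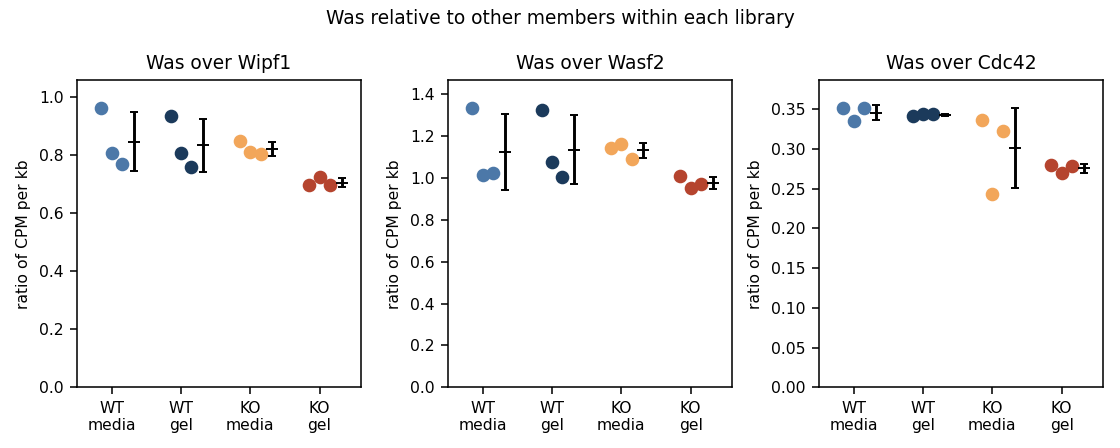
Ratio of the Was level to the levels of Wipf1, Wasf2 and Cdc42 (CPM per kb of exon over CPM per kb, vertical axes from 0) in each library, with group mean and SD in black. For Was over Wipf1 the 3 KO gel points lie between 0.696 and 0.724, under all 9 other points; in the other panels KO gel overlaps another group.

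The 5 WAVE complex genes did not pass the test in any of the 5 comparisons. Brk1, the small HSPC300 subunit, came closest. Its libraries read 93.09, 73.81 and 80.70 CPM in WT media, 82.36, 78.26 and 81.56 CPM in WT gel, 85.86, 79.75 and 78.87 CPM in KO media, and 72.49, 68.03 and 70.25 CPM in KO gel. As with Was, the KO gel libraries were the lowest 3 of 12. Of the genes tested, 11.3% had all KO gel libraries under the other 9. The log2 difference of Brk1 between gel and media in KO was -0.21 (SE 0.08, 95% interval -0.38 to -0.05, adjusted p = 0.0613). Between KO and WT in gel it was -0.20 (SE 0.08, 95% interval -0.37 to -0.04, adjusted p = 0.0965).

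Nckap1l encodes HEM1, the haematopoietic form of the NAP1 scaffold subunit. It read 317.72, 338.94 and 366.93 CPM in WT gel and 302.61, 299.51 and 306.25 CPM in KO gel, with no overlap, and 288 to 336 CPM in the 6 media libraries. KO against WT in gel gave -0.17 (SE 0.07, 95% interval -0.33 to -0.02, adjusted p = 0.125). Wasf2, the WAVE2 subunit that activates Arp2/3, ranged from 222 to 295 CPM over all libraries, with -0.14 (SE 0.10, adjusted p = 0.373) for KO against WT in gel. Cyfip2, the subunit that carries a Rac binding site, ranged from 393 to 514 CPM and gave log2 differences between -0.05 and 0.05 in the 4 pairs of groups. Abi1, the adaptor subunit, ranged from 114 to 130 CPM, and its log2 differences ran from -0.09 to 0.03. Of its exon bases, 4.81% are overlapped by Pdss1 on the opposite strand, and the strand setting of the counting is not given in the sources used here.

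Pak2, a kinase that GTP-bound Cdc42 and Rac release from autoinhibition, averaged lowest in KO gel. It read 241.12, 231.63 and 236.57 CPM there, against 242.76, 265.18 and 264.97 CPM in WT gel and 250.69, 263.16 and 258.50 CPM in KO media. WT media, at 240 to 255 CPM, overlapped KO gel. Both differences were near -0.12 (SE 0.06 each; adjusted p = 0.159 for gel against media in KO and 0.19 for KO against WT in gel). The difference between the genotypes' gel responses was -0.19 (SE 0.09) with an unadjusted p of 0.0471 and an adjusted p of 0.248.

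Read by comparison, the 10 genes gave no call between gel and media in WT cells: 0 of 10 were called, beside 0.0368% of all genes tested (7), 0 had an unadjusted p under 0.05, beside 5.43%, and 0 were without overlap between the groups, beside 9.18%. Apart from Wasl, whose interval ran from -0.45 to 0.59, the 95% intervals of the members lay within -0.27 to 0.22, or 0.831- to 1.17-fold. Between KO and WT in media 0 of 10 were called, beside 0.189% of all genes (36), 0 had an unadjusted p under 0.05, beside 7.49%, and 0 were without overlap, beside 10.7%. The 9 intervals other than that of Wasl lay within 0.815- to 1.24-fold. With the replicate number as a block, the calls over all genes rose to 171 and 57 in these comparisons, and those among the 10 stayed at 0.

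In KO cells, gel against media called 1 of the 10, with 20.8% of all genes called and 9.74% called lower. An unadjusted p under 0.05 was reached by 3 of the 10 and by 36.7% of all genes. A total of 4 had no overlap between groups and were lower in gel (Cdc42, Was, Brk1 and Pak2), beside 23.9% of all genes. KO against WT in gel called 1 of the 10, beside 14.8% of all genes called and 7.71% called lower. Here too 3 of the 10 had an unadjusted p under 0.05, beside 30.1% of all genes. Again 4 did not overlap and were lower in KO (Was, Nckap1l, Brk1 and Pak2), beside 19.9% of all genes. These comparisons share the KO gel libraries. The median log2 difference of the 10 was -0.08 for gel against media in KO (8 of 10 below 0) and -0.12 for KO against WT in gel (7 of 10 below 0), where the medians of all genes tested were -0.01 and -0.0003. When libraries were scaled by total counts, the members' medians were -0.04 and -0.01, where those of all genes were 0.03 and 0.10. For the interaction of genotype and culture 0 of 10 were called by edgeR, and 2 had an unadjusted p under 0.05, beside 3.35% of all genes called and 19.6% under that unadjusted p.

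**Figure D3:**
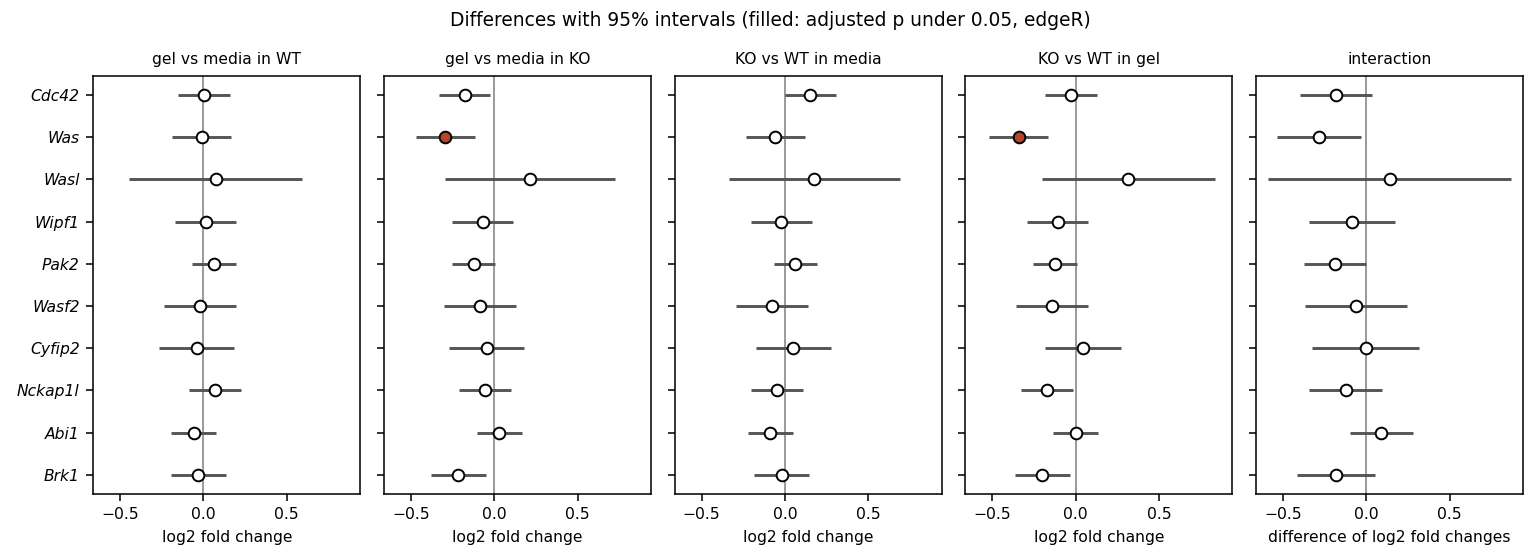
Log2 fold change (horizontal axis) of each of the 10 genes in the 4 pairs of groups, and the difference of log2 fold changes for the interaction, with 95% intervals as lines and filled points where the adjusted p is under 0.05. The 2 filled points are Was for gel against media in KO (-0.29) and for KO against WT in gel (-0.34); the Wasl intervals are the widest.

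Within each paralog family, 1 form held most of the transcript per length of exon. Was made up 94.9 ± 1.56% of Was and Wasl (SD, 12 libraries), with 95.8 ± 1.37% in WT media, 95.6 ± 0.916% in WT gel, 94.98 ± 2.08% in KO media and 93.2 ± 0.516% in KO gel. Wipf1 held 89.1 ± 0.466% beside Wipf2 and Wipf3, and Cyfip2 94.99 ± 0.564% beside Cyfip1. Pak2 held 97.5 ± 0.368% beside Pak1 and Pak3. Wasf2 made up 99.97% of the 3 WAVE genes. Wasf1 and Wasf3, and likewise Wipf3 and Pak3, were too low to be tested and never exceeded 0.125 CPM.

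For 2 of the WAVE subunits the share in KO gel left the range of the other 9 libraries, in opposite directions. Nckap1l held 94.7 ± 0.307% of the sum with Nckap1, its widely expressed paralog, in WT media, 94.7 ± 0.306% in WT gel and 94.7 ± 0.690% in KO media. In KO gel it held 92.9 ± 0.453%, with libraries at 92.4 to 93.3% against 94.0 to 95.4%. Abi1 held 84.5 ± 0.984% of the sum with Abi2 and Abi3 in WT media, 84.3 ± 0.267% in WT gel and 83.7 ± 0.927% in KO media. In KO gel it held 86.5 ± 0.584%, with libraries at 85.8 to 86.9% against 82.8 to 85.6%. These shares are given as descriptions, with no test. How often paralog families over all genes leave that range was not counted. Of single genes tested, 11.3% had all KO gel libraries under the other 9. That share covers single genes and the lower direction only, and the share above the other 9 is not given here.

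Nckap1 and Abi2 also passed the test themselves. Nckap1 rose in KO gel against media by 0.40 on the log2 scale (SE 0.11, adjusted p = 0.0177), from 14.8 ± 1.12 CPM to 19.4 ± 1.43 CPM. That call ended without KO media 1, KO gel 1 or KO gel 3 (adjusted p 0.0577 to 0.0962). Abi2 fell by 0.35 (SE 0.07, adjusted p = 0.0050), from 30.5 ± 3.17 to 23.9 ± 0.622 CPM, and this call passed in 14 of 14 alternatives. Abi2 also differed between KO and WT in gel, at -0.31 (SE 0.08, adjusted p = 0.0139), a call that ended without WT gel 2, KO gel 1 or KO gel 2 (adjusted p 0.0535 to 0.0602) and when libraries were scaled by total counts.

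**Figure D4:**
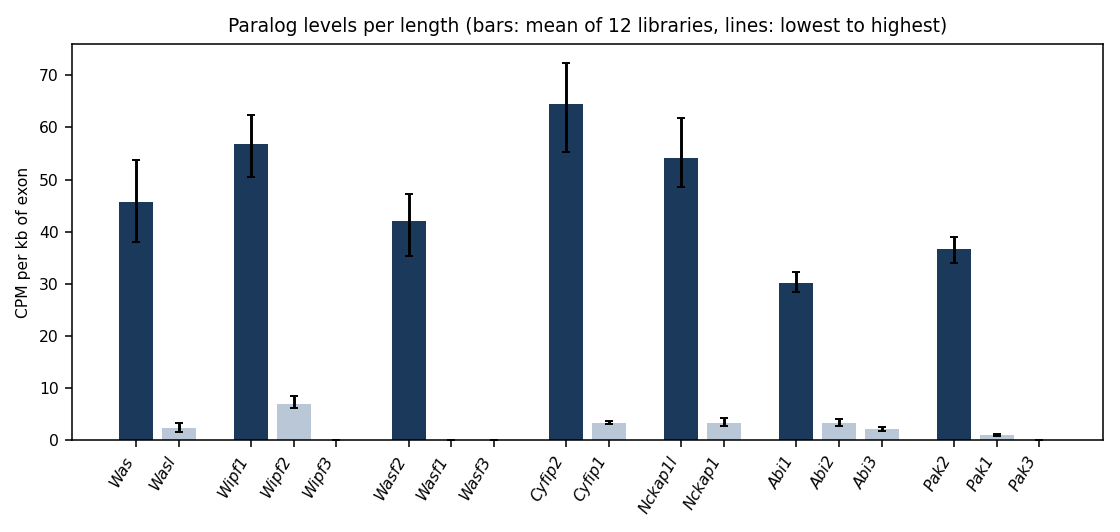
Level per length (CPM per kb of exon, axis from 0) of the members that have paralogs (dark bars) and of their paralogs (light bars), as the mean of 12 libraries with lines from the lowest to the highest library. The dark bar stands far above the light ones in every family, and Wipf2 is the highest of the light bars.

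Among 8625 protein-coding genes averaging 3 or more on the log2 CPM scale, those whose log2 CPM followed Was most closely over the 12 libraries were Rac2 (Pearson r = 0.975), Nt5c3b (0.972) and 2210016L21Rik (0.966). Rac2 encodes the haematopoietic Rac GTPase, a direct activator of the WAVE complex. For Cdc42 they were Tmed2 (r = 0.955), 1810037I17Rik (0.944) and Tomm70a (0.932). These r values describe 12 points that share libraries and, for Was, include the low KO gel group. Between Was and Brk1 r was 0.883, and between Was and Wasl it was -0.785. Was and Wipf1 gave 0.538, and the highest r of any pair of members was that of Wipf1 and Wasf2 (0.920).

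Of 111 further genes of the pathway in 5 lists, 103 were tested, and 0 were called between gel and media in WT. Between KO and WT in media the 1 gene called was Dock8 itself. In gel against media in KO 10 of the pathway genes tested were called higher and 11 lower, or 20.4% beside 20.8% of all genes. In KO against WT in gel 5 were higher and 10 lower, or 14.6% beside 14.8% of all genes. Both shares are close to the background. The direction of these counts depends on the scaling: with total counts in place of TMM, 10 were higher and 3 lower in the first comparison and 8 higher and 1 lower in the second.

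Among the called pathway genes named below, leaving out both libraries rich in ribosomal RNA ended 8 of the calls between gel and media in KO: Nckap1, Dock2, Rac2, Grb2, Coro1c, Arpc5, Actr3 and Cttn (adjusted p 0.0544 for Nckap1 to 0.152 for Grb2). Between KO and WT in gel it ended those of Abi2, Jmy, Pak1, Arhgap1, Rac2, Vav3, Fmnl2, Coro1b and Coro1c (adjusted p 0.0552 for Coro1b to 0.154 for Coro1c). When only genes averaging 3 or more on the log2 CPM scale were tested, the gel against media calls of Rac2, Grb2, Arpc5 and Actr3 ended (adjusted p 0.0783 to 0.137). So did the KO against WT calls of Abi2, Vav3, Arhgap1, Rac2, Coro1b and Coro1c in gel (adjusted p 0.0572 to 0.146).

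Among the paralogs and related nucleation promoters (13 of 17 tested), 2 rose and 1 fell in KO gel against media, and 1 was higher and 2 lower in KO than in WT in gel. Beside Abi2 and Nckap1, Jmy, a nucleation promoter that also binds p53 cofactors, rose by 0.32 (SE 0.07, adjusted p = 0.0058), from 41.4 ± 0.893 to 51.7 ± 3.30 CPM. KO against WT in gel gave 0.26 for Jmy (adjusted p = 0.0247), which ended without WT gel 1, WT gel 2, KO gel 1 or KO gel 3 (adjusted p 0.076 to 0.12). Pak1 was lower in KO gel than in WT gel, at -0.44 (SE 0.14, adjusted p = 0.0477), and this call ended without any 1 of the 6 gel libraries (adjusted p 0.0558 to 0.162).

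Among the exchange factors, GAPs, GDIs and Rac GTPases (30 of 30 tested), 3 rose and 1 fell in KO gel against media. Vav2, an exchange factor, rose by 0.47 (SE 0.08, adjusted p = 0.0013), from 15.1 ± 0.651 to 21.0 ± 1.25 CPM. The counts of the disrupted Dock8 rose by 0.44 (SE 0.09, adjusted p = 0.0042). Dock2, the main Rac exchange factor of lymphocytes, rose by 0.29 (SE 0.09, adjusted p = 0.0274), a call that ended without KO media 2, KO media 3 or any 1 of the KO gel libraries (adjusted p 0.0608 to 0.0975). Rac2 fell by 0.24 (SE 0.08, adjusted p = 0.0467), from 720 ± 66.7 to 608 ± 13.1 CPM, and its call ended without KO media 1, KO media 3 or any 1 of the KO gel libraries (adjusted p 0.0744 to 0.161).

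Against WT in gel, 4 genes of this list were lower in KO: Dock8, Arhgap1, Rac2 and Vav3. Arhgap1, a GAP for Cdc42, differed by -0.29 (SE 0.08, adjusted p = 0.0234), Rac2 by -0.30 (SE 0.08, adjusted p = 0.0256) and Vav3 by -0.21 (SE 0.07, adjusted p = 0.0435). Each of these 3 calls ended when any 1 KO gel library was left out (adjusted p up to 0.0734 for Arhgap1, 0.0854 for Rac2 and 0.143 for Vav3). Without WT gel 2 or WT gel 3 the Arhgap1 call ended as well, as did Rac2 without WT gel 1 and Vav3 without any WT gel library. With total counts as the scaling Dock8 was the 1 lower call of the list.

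Other effectors of Cdc42 and Rac (25 of 28 tested) were called in both directions: 4 rose and 3 fell in KO gel against media. Cdc42bpg, which encodes the MRCK gamma kinase, rose by 0.63 (SE 0.07, adjusted p = 0.0001), from 15.9 ± 1.04 to 24.5 ± 0.896 CPM. Fmnl3, a formin, fell by 0.48 (SE 0.08, adjusted p = 0.0009), from 39.0 ± 1.56 to 27.9 ± 2.65 CPM. Tnk2, the ACK1 kinase that binds GTP-loaded Cdc42, fell by 0.40 (SE 0.09, adjusted p = 0.0082). Each of these 3 passed in 14 of 14 alternatives. Cdc42se1 fell by 0.23 (SE 0.06, adjusted p = 0.0147), a call that ended without KO media 1 or KO gel 3 (adjusted p 0.05 and 0.0582) and when libraries were scaled by total counts (0.136).

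In gel, KO against WT called 3 of these effectors higher and 1 lower. The lower one was Fmnl3, at -0.38 (SE 0.08, adjusted p = 0.0050; 0.0617 when scaled by total counts), and Cdc42bpg was higher by 0.41 (SE 0.07, adjusted p = 0.0024). Cdc42bpa, the MRCK alpha gene, was higher by 0.82 (SE 0.18, adjusted p = 0.0078), at 4.23 ± 0.137 against 2.42 ± 0.373 CPM. Fmnl2 was higher by 1.34 (SE 0.42, adjusted p = 0.0435) at levels under 1 CPM, and its call ended without any 1 of the 6 gel libraries (adjusted p 0.0517 to 0.142).

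Of 18 adaptors and kinases upstream of WASP and WAVE, all tested, Grb2 alone was called. It fell in KO gel against media by 0.19 (SE 0.06, adjusted p = 0.0280), from 116 ± 4.75 to 102 ± 2.16 CPM, and against WT in gel the difference was -0.27 (SE 0.06, adjusted p = 0.0064). The first of these calls ended without KO media 3 or any 1 of the KO gel libraries (adjusted p 0.0587 to 0.0906). With total counts as the scaling neither passed.

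The Arp2/3 complex, on which WASP and WAVE converge, and its branch regulators (17 of 18 tested) had a median log2 difference of -0.18 in KO gel against media, with 16 of 17 below 0, beside -0.01 over all genes and -0.15 over the 7 CD8 T cell markers (6 of 7 below 0). There, 5 fell and 1 rose, where 9.74% of all genes fell and 11.1% rose. The subunit gene Arpc4 fell by 0.30 (SE 0.07, adjusted p = 0.0086), from 162 ± 6.81 to 132 ± 2.25 CPM. Its call held without each KO library in turn. The coronin gene Coro1c fell by 0.26 (SE 0.07, adjusted p = 0.0158) and Arpc5 by 0.25 (SE 0.07, adjusted p = 0.0221). Actr3, the ARP3 subunit, fell by 0.23 (SE 0.07, adjusted p = 0.0385). The Coro1c call ended without KO media 1 or KO gel 1 (adjusted p 0.0539 and 0.0623). Those of Arpc5 and Actr3 ended without KO media 2 or any 1 of the KO gel libraries (adjusted p 0.0512 to 0.0683 for Arpc5 and 0.0783 to 0.114 for Actr3). With total counts as the scaling 0 genes of this list were called lower, and its median was -0.14.

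In KO against WT in gel, 1 gene of the Arp2/3 list was higher and 2 were lower. The higher one, Cttn, differed by 1.48 (SE 0.37, adjusted p = 0.0154) at levels of 1.36 ± 0.580 against 0.502 ± 0.188 CPM, a call that ended without WT gel 3 or KO gel 2 (adjusted p 0.0589 and 0.078). Coro1b differed by -0.29 (SE 0.08, adjusted p = 0.0228) and Coro1c by -0.22 (SE 0.07, adjusted p = 0.0405). Both ended without WT gel 1 or any 1 of the KO gel libraries, and Coro1c also without WT gel 2 (adjusted p up to 0.0783 for Coro1b and 0.136 for Coro1c).

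The median log2 difference of the 7 CD8 T cell markers was -0.15 against KO media (6 of 7 below 0) and -0.21 against WT gel (7 of 7 below 0). Of the 7, Thy1 (-0.24) and Cd3g (-0.21) fell against KO media, where 9.74% of all genes were called lower. Trac (-0.24) and Thy1 (-0.23) were lower than in WT gel, where 7.71% of all genes were called lower. Was differed by -0.29 and -0.34 in these comparisons. All 4 marker calls ended when libraries were scaled by total counts (adjusted p 0.174 to 0.45) and without both libraries rich in ribosomal RNA (0.0635 to 0.122). Against KO media those of Thy1 and Cd3g also ended without KO media 1, KO media 3 or any 1 of the KO gel libraries (adjusted p up to 0.135). Against WT gel Trac ended without KO gel 2 (0.0642), and Thy1 without any 1 of the 6 gel libraries (0.0766 to 0.132).

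Of the markers of other cell types 11 of 23 were tested. In KO gel against media 3 rose (Itga2b, Mcpt8 and Cd4) and 0 fell, where 11.1% of all genes tested rose. Against WT in gel 5 were higher (these, Pf4 and Cpa3), where 1354 of all 19010 genes tested were. There 0 were called lower, and log2 differences in the list ran from -2.08 to 3.95. Itga2b, a platelet integrin chain, rose by 1.55 (SE 0.17, adjusted p = 5.67e-05) to 9.54 ± 2.17 CPM, and it passed in 13 of 13 alternatives in each comparison. Against KO media the calls ended without KO media 1, KO gel 2 or KO gel 3 for Mcpt8 (adjusted p 0.0548 to 0.0809) and without those or KO media 2 for Cd4 (0.0589 to 0.173). Against WT gel they ended without KO gel 3 for Cd4 (0.0503) and without WT gel 2 for Pf4 (0.0542). For Cpa3 the call ended without any WT gel library, KO gel 2 or KO gel 3 (0.0525 to 0.11). Of 13 alternatives of every kind against KO media, Mcpt8 passed in 9 and Cd4 in 8. Against WT gel Mcpt8 passed in 13 of 13, Cd4 in 12, Pf4 in 11 and Cpa3 in 7. The part of either marker list in the values of the actin regulators was not tested.

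**Figure D5:**
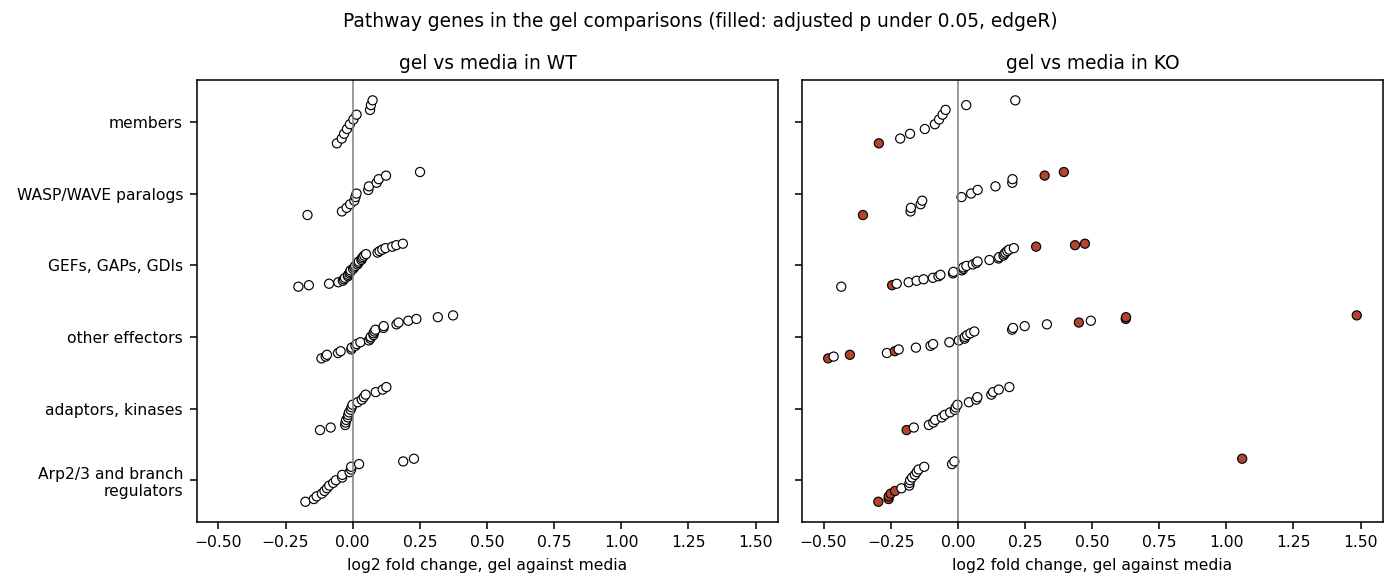
Log2 fold change between gel and media (horizontal axis, shared by both panels) of every tested gene of the 10 members and the 5 pathway lists (rows), in WT on the left and in KO on the right, filled where the adjusted p is under 0.05. No point is filled in WT; in KO filled points lie on both sides of 0, with 5 Arp2/3 and branch regulator genes below 0 and Cttn above.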

How the data were processed

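Per the labels, total RNA was isolated with the PureLink kit, ribosomal RNA was depleted with RiboCop, and libraries were made with the KAPA HyperPrep kit. The deposited table holds raw counts per gene symbol and library; per the submitters' processing notes the tools included HISAT2 and featureCounts on GRCm38 (mm10), without versions. The sources used here do not give the annotation, the strand setting or the treatment of reads with several matches. Positions and exon lengths came from GENCODE M21, which matched 96.4% of symbols.

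Counts were filtered with filterByExpr, scaled by TMM and fitted for all 4 groups with edgeR 4.0.16 (R 4.3.3; limma 3.58.1 and DESeq2 1.42.0 for alternatives), in 5 contrasts, with Benjamini-Hochberg adjustment over 19010 genes. The script was also run on simulated counts with changes set in KO gel alone, and the outcome is not given here. Those counts held no pairing and no shift in ribosomal RNA, so the run does not bear on either. SE is the absolute log2 fold change over the square root of F. CPM per kb divides by the union of exons. Alternatives were total counts as the scaling, no filter and a stricter one, limma-voom, DESeq2, the groups of a contrast alone, libraries left out, and the replicate number as a block.

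The members, the gene lists and the rule for named genes were chosen with earlier results of these data known. The rule takes the 10 members, Dock8, paralogs of the members and the 3 genes most like Cdc42 and Was. Per list and contrast it takes up to 4 called genes in order of p. It also allowed genes in order of p from lists without a call. Those genes were left out here, and such lists are given as counts.

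Replicates of a group differed by more than counting noise (chi-square per degree of freedom 13.2 to 171). Whether libraries came from separate cultures is not stated beyond 3 mice per group, so p-values measure the spread between these libraries. Same-numbered libraries deviated together in WT media and gel (r = 0.79, 0.24 and 0.80), and more weakly in WT and KO media (0.21, 0.17 and 0.38). There the numbers were taken to pair them, from the data and not the labels. In KO media and gel (-0.04, 0.20 and 0.17) and in WT and KO gel (-0.45, 0.15 and 0.14) the signs were mixed. Some of these values were close to those in media, and WT gel 1 with KO gel 2 gave 0.51. Pairing there was left undecided.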

Additional observations from a re-analysis of the deposited data

Results flagged for a closer look

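In 3 genes of the pathway lists and 1 marker the gel response differed between the genotypes by the interaction test of edgeR, the KO response minus the WT response. The 3 are 2.91% of the pathway genes tested, beside 3.35% of all genes called. Abi2, the ABI1 paralog, gave -0.41 (SE 0.11, adjusted p = 0.0482), with 28.4 ± 0.985 CPM in WT media, 29.6 ± 0.551 in WT gel, 30.5 ± 3.17 in KO media and 23.9 ± 0.622 in KO gel. It passed in 5 of 19 alternatives and was lost without any 1 of 10 libraries (all but WT media 1 and KO media 1; adjusted p 0.0569 to 0.114). Cdc42bpg gave 0.51 (SE 0.11, adjusted p = 0.0211), with 17.0 ± 0.697, 18.4 ± 1.00, 15.9 ± 1.04 and 24.5 ± 0.896 CPM in the same order; it passed in 15 of 19 and was lost without WT media 2, KO gel 1 or KO gel 3 (adjusted p 0.055 to 0.0645). Fmnl3 gave -0.49 (SE 0.11, adjusted p = 0.0278), with 36.2 ± 2.16, 36.5 ± 1.69, 39.0 ± 1.56 and 27.9 ± 2.65 CPM; it passed in 11 of 19 and was lost without WT media 3, KO media 1, KO media 3, WT gel 2 or KO gel 1 (adjusted p 0.0503 to 0.0706). The platelet gene Itga2b gave 1.30 (SE 0.24, adjusted p = 0.014), passing in 17 of 18. Without both libraries rich in ribosomal RNA all 4 calls ended (adjusted p 0.184 for Abi2, 0.0692 for Cdc42bpg, 0.138 for Fmnl3 and 0.0692 for Itga2b). All 4 kept their sign in every alternative run.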

How the results depend on the processing

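The 50 values of the members (10 genes in 5 comparisons) were recomputed in 750 alternatives; 10 lost and 9 gained a call, 0 called values reversed, and 68 values that were not called changed sign. In WT gel against media and in KO against WT in media, 0 members were called in every alternative. For gel against media in KO the 1 called member became 0 with total counts as the scaling, with genes of a mean log2 CPM of at least 3 only (Was adjusted p = 0.0543) and without the 2 libraries rich in ribosomal RNA, 3 with no filter beyond 1 count (Was, Cdc42 and Brk1), and 2 with the 2 groups fitted alone; leaving out 1 library gave 0 to 1. Over all genes, 15.4% were called there with no filter beyond 1 count and 33.3% with the 2 groups alone. For KO against WT in gel the 1 became 0 with total counts and without the 2 libraries rich in ribosomal RNA. It became 2 with the 2 groups alone (Was and Brk1), where 18.0% of all genes were called. Without WT media 1 the interaction called 1 member, Was (adjusted p = 0.0478), beside 10.3% of all genes, against 3.35% in the main fit. Leaving out 1 library gave 0 to 1 members for the interaction. With the replicate number as a block, 3 members were called for gel against media in KO, beside 41.1% of all genes. They were Was (adjusted p = 0.000899), Brk1 (0.00447) and Cdc42 (0.00896). The block called 2 members for KO against WT in gel, beside 18.9% of all genes. For the interaction it called 1 (Was, 0.0267), beside 18.0%. It used the numbers in every group. The numbers were not shown to pair the KO media and gel libraries or the gel libraries of the genotypes. Was in KO gel against media ranged from -0.38 to -0.22 and passed in 6 of 14 alternatives, and against WT gel from -0.37 to -0.24 and in 12 of 14. Of 745 alternatives of 53 called list and marker values, 226 lost the call and 0 reversed. With exon length from the longest transcript the shares of Wipf1, Cyfip2 and Abi1 were 90.1, 91.6 and 83.5%. Over all genes, calls ran from 2 to 195 (WT gel), 2055 to 7804 (KO gel), 19 to 435 (KO against WT in media), 1444 to 4156 (in gel) and 30 to 3431 (interaction), against 7, 3962, 36, 2819 and 636. Total counts moved the share of higher calls from 53.3 to 69.8% in KO gel, from 48.0 to 82.2% for KO against WT in gel, from 56.6 to 95.02% for the interaction and from 85.7 to 46.7% in WT gel. Wasl, at 9.10 to 20.2 CPM, was the member least precisely measured.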
